A study of Mus musculus with 8 samples.

Results

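Ribosomal protein pseudogenes are described here as they appear in one expression table of sorted mouse spleen myeloid cells. They were chosen by symbol, as the genes whose name is that of a ribosomal protein gene followed by -ps, and Rps3a2 and Rps3a3 were added by name. This gave 187 of the 23084 genes in the table, 185 by the pattern and 2 by name, set against 54 parent genes. The parent is the gene named before -ps, and Rps3a1 for both added genes. The set was selected on earlier results of these samples, so its composition and the high place of Rps3a2 and Rps3a3 are a description, with no test.

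RNA-sequencing was done on cells sorted from spleens of C57BL/6 mice of 6 to 8 weeks. There were 4 groups of 2 samples each: CD11b+Ly6C+ (monocytic) and CD11b+Ly6G+ (granulocytic) cells of wt mice, and the same populations of LmnaMyeKO mice, labelled Lmna KO, in which floxed Lmna, the gene of lamin A/C, is deleted by Cre under the Lyz2 (LysM) promoter, active across the myeloid lineage. The table gives one mean per gene, which is an average of size-factor-normalized counts made by the authors. The table is named for a comparison of HCWT with HCKO. Whether its mean covers all groups or only some of them is not stated in the sources used here. No value per sample was analysed, so no level below is tied to a genotype or a subset, and no replicate error, depth per sample or test stands behind it. The cell type markers were all listed. The monocytic markers ran from a mean per kb of transcript of 304 for Fcgr1 to 26790 for Ly6c2, and the granulocytic markers from 8346 for Ly6g to 1.4171e+06 for S100a9. B cell markers (1654 to 4065 per kb), T cell markers (197 to 417), macrophage markers (2160 to 9704) and erythroid markers (44.0 to 13663) were listed too, and their part in the levels below was not tested.

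Ribosomal proteins are the protein subunits of the ribosome, the particle that makes all cellular protein, and their mRNAs are among the most abundant in most cells. Short, abundant mRNAs are at times copied back into DNA and inserted elsewhere in the genome by the machinery of mobile elements. Such a processed pseudogene has no introns, usually starts without a promoter of its own, and begins as a near copy of the mRNA that collects changes over time. A short sequencing read that lies in a stretch where copy and parent are the same matches both. RSEM, with which the levels were estimated, divides such reads between the genes they match by likelihood, so the level of a close copy is an estimate of that division.

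Of these 187, the copies with the highest means belong to Rps3a1, a gene of the small ribosomal subunit, and differ from it at few bases. The lines that follow hold 240 bases of the coding sequence (positions 523 to 762, counted from the A of the start codon) of Rps3a1 and of both copies, a stretch that holds many of their differences. Capitals mark bases at which a copy differs from the parent, and in the parent's line the bases changed in either copy. In Rps3a1 these bases are spliced from chr3:86138022-86139080 on the minus strand, in Rps3a2 they are chr14:88123047-88123286 on the minus strand, and in Rps3a3 chr13:108671125-108671364 on the plus strand (mm10).
Rps3a1: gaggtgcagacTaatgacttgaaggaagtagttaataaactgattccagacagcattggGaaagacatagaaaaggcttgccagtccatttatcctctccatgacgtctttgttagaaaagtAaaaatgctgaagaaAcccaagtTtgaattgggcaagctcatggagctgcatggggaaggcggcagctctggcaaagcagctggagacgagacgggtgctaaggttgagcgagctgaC
Rps3a2: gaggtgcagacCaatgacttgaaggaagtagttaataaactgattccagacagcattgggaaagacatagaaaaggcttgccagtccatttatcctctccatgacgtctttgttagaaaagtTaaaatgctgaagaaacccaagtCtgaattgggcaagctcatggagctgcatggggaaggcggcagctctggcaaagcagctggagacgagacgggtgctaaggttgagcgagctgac
Rps3a3: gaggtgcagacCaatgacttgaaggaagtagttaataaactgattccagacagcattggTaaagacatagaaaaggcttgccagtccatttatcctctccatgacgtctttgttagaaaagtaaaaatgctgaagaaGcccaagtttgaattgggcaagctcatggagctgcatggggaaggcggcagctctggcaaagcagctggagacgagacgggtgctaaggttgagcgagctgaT
Rps3a2 differs from Rps3a1 at 4 positions of its 792 bases (T216C, T534C, A645T and T668C, parent base first). Rps3a3 differs at 9 positions of its 795 bases (T216C, T260C, C363T, A427T, T534C, G582T, A660G, C762T and G792A). T216C and T534C are in both. The longest run without a difference is 317 bases in Rps3a2 and 215 bases in Rps3a3.

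3 further pairs show bases at which a copy and its parent differ, where the level of the copy was high for its length, and where it was close to the bottom. Rpl39 (chrX:37082732-37084026, minus strand, spliced) and Rpl39-ps (chr15:102635104-102635163, plus strand) differ at 1 base of these 60, as do Rpl34 (chr3:130729055-130729114, minus strand) and Rpl34-ps1 (chr6:71124711-71124770, plus strand). Rps12 (chr10:23786820-23786879, minus strand) and Rps12-ps11 (chrX:124470283-124470342, minus strand) differ at 3 of 60. Each stretch was chosen among those of 60 coding bases that hold the most differences. Outside it, Rpl34-ps1 also differs at C318G, and Rps12-ps11 at C97T, C135T, C216T, G235A and C253T.
Rpl39: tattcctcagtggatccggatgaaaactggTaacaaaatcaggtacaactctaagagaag
Rpl39-ps: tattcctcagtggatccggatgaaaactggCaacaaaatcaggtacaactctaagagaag
Rpl34: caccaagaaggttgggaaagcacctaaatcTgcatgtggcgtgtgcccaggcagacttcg
Rpl34-ps1: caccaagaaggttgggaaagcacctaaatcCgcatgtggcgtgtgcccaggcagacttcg
Rps12: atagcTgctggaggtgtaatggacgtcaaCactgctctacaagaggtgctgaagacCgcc
Rps12-ps11: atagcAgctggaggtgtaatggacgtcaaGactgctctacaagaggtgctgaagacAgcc

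The pseudogenes spanned a wide range of low levels, far below their parents. Their means ran from 0.191 to 2796, with a median of 9.57 and quartiles of 2.06 and 31.1. The means of the 54 parents ran from 1968 to 18245, with a median of 7992, so the ranges met only at the top pseudogene. A mean of at least 1 was reached by 162 pseudogenes, of at least 10 by 90, of at least 100 by 12 and of at least 1000 by 2. Summed, the pseudogenes had 9930 and the parents 431463, which is 0.0393% and 1.71% of the sum of the whole table. Rps3a2 and Rps3a3 held 45.3% of the pseudogenes' sum and the 10 highest held 64.5%, while the pseudogenes with a mean under 10 held 3.19%.

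Levels of different genes were compared per kb of transcript. Per kb, the median of the pseudogenes was 19.3, against 10089 in their parents, 9681 in all 85 coding genes of the ribosomal protein list and 3.06 in the 2454 other processed pseudogenes of the table. Of these 2454, 550 are themselves closest in sequence to a coding ribosomal protein gene. Not divided by length, the median mean was 2.44 in the 550, 1.87 in the other 1904 and 9.57 in the 187. No gene of the table has a mean of 0, so these medians and the percentiles below cover genes with some signal, not the whole annotation. The median per kb over the 23004 genes of the table with a length was 25.3. Among these genes, the median percentile of the pseudogenes was 47.6, and that of the 85 listed coding genes was 99.2. This list was made by symbol, and it holds Rps19bp1 (mean 110), whose name is that of a binding protein of Rps19.

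**Figure D1:**
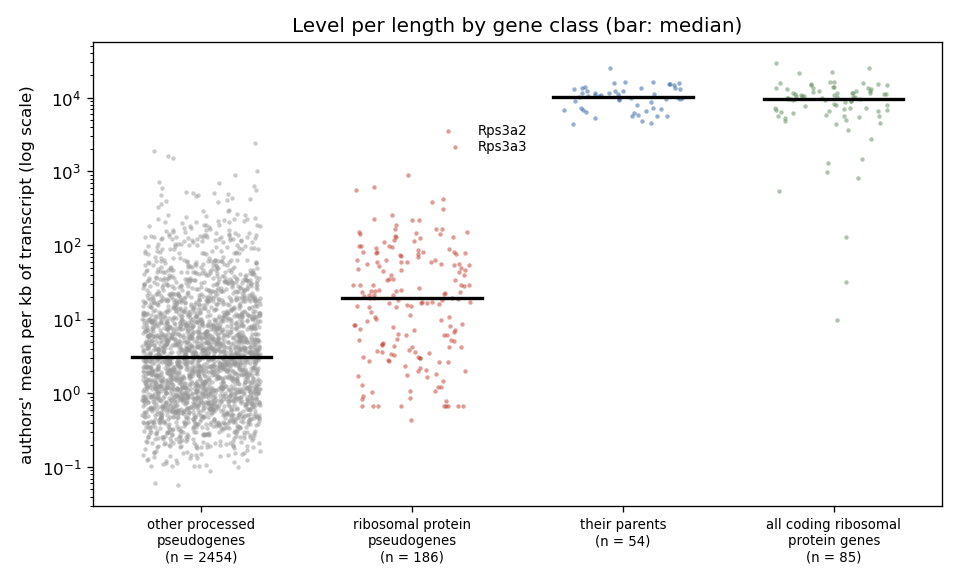
Authors' mean per kb of transcript (log axis) by gene class. The classes are 2454 other processed pseudogenes, 186 ribosomal protein pseudogenes, their 54 parents and 85 coding genes of the ribosomal protein list. Each point is a gene and bars are medians. The ribosomal protein pseudogenes have a median of 19.3 per kb, between 3.06 in other processed pseudogenes and 10089 in the parents. Among the 2454 others, 550 are also closest in sequence to a coding ribosomal protein gene. Rps3a2 and Rps3a3 lie at the top of their class.

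Per length, no pseudogene stood above its parent. The median was 0.182% of the parent's level per kb, with quartiles of 0.0382% and 0.729% and a range of 0.00416% to 32.8%. 30 pseudogenes were at or above 1% of the parent, 3 at or above 10%, and 74 were under 0.1%. The 3 were Rps3a2, Rps3a3 and Rpl39-ps. These values depend on the transcript length used for the parent, here its shortest principal coding transcript, a definition chosen after values were seen. With all exons of a gene merged, the median was 0.516%, and 73 pseudogenes were at or above 1%, 11 at or above 10% and 49 under 0.1%. With the longest principal transcript, the median was 0.217%, and 43, 7 and 62 pseudogenes were in these classes. Without division by length, the median was 0.130%, with 18, 2 and 87. The order at the top turned as well. With merged exons Rps15a-ps7 (42.2%) and Rpl34-ps1 (33.2%) stood above Rps3a2, and with the longest principal transcript Rps15a-ps7 (34.8%) did. Rps3a2 (32.8%) and Rps3a3 (19.9%) had the same percent under all 3 definitions of length, because Rps3a1 has the same length in each. Without division by length they were at 26.6% and 16.2%.

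Rps3a2 had the highest mean among them, 2796, which per length was 32.8% of Rps3a1 (mean 10508). It is a single exon at chr14:88123017-88123808 on the minus strand, overlaps no annotated coding or long non-coding gene and is 99.5% the same as the parent. Rps3a3 had a mean of 1699, or 19.9% of Rps3a1 per length. It lies at chr13:108670603-108671397 on the plus strand, within an intron of Pde4d, a cAMP phosphodiesterase gene read in the same direction, and is 98.9% the same as the parent. Together they made up 29.96% of the summed mean of Rps3a1 and both copies. In both, a reading frame as long as that of Rps3a1 (792 bases) is kept, which in Rps3a2 runs to the end of the annotated model. Of the 50-base windows of Rps3a2, 76.7% are also in Rps3a1 and 9.83% are in no other annotated transcript. For Rps3a3 these shares are 49.6% and 34.9%.

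Rpl17-ps8 followed with a mean of 553, or 7.73% of Rpl17, a gene of the large subunit, per length. It lies on chromosome X in an intron of Heph, the gene of the copper enzyme hephaestin, on the same strand, is 99.7% the same as its parent, and has 1.92% of its windows to itself. Rpl10-ps3 had a mean of 322, or 2.63% of Rpl10. It is annotated as protein coding, although it has 1 exon, and matches Rpl10 without a mismatch over 96.4% of its 768 bases. Rpl34-ps1 had a mean of 199, or 6.02% of Rpl34, from which it differs by T132C and C318G. It has no window of its own, and 10 other genes share windows with it. With merged exons these 3 stood at 13.2%, 6.75% and 33.2% of their parents, and with the longest principal transcript at 13.2%, 2.81% and 7.83%.

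The next 5 were near each other in level. Rpsa-ps10 had a mean of 192, or 1.90% of Rpsa, the gene of the laminin receptor and small-subunit protein SA. Rpl3-ps1 had 171, or 1.79% of Rpl3, and Rps13-ps1 had 166, or 3.53% of Rps13. Rpl15-ps2 had 156, or 3.82% of Rpl15, and Rps15a-ps7 had 153, or 4.31% of Rps15a. With merged exons the percents of these 5 were 3.77%, 4.21%, 16.1%, 11.8% and 42.2%. With the longest principal transcript Rpl15-ps2 was at 9.16% and Rps15a-ps7 at 34.8%. The means carry no replicate error against which the order from 153 to 199 could be judged. Identity to the parent ran from 98.7% (Rpl15-ps2 and Rps15a-ps7) to 100% (Rpl10-ps3) over the 10 highest. All but Rps15a-ps7 among these 10 keep a reading frame of at least 90% of the parent's, and in Rps15a-ps7 it is 69.2%, with 1 base of the parent missing.

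**Figure D2:**
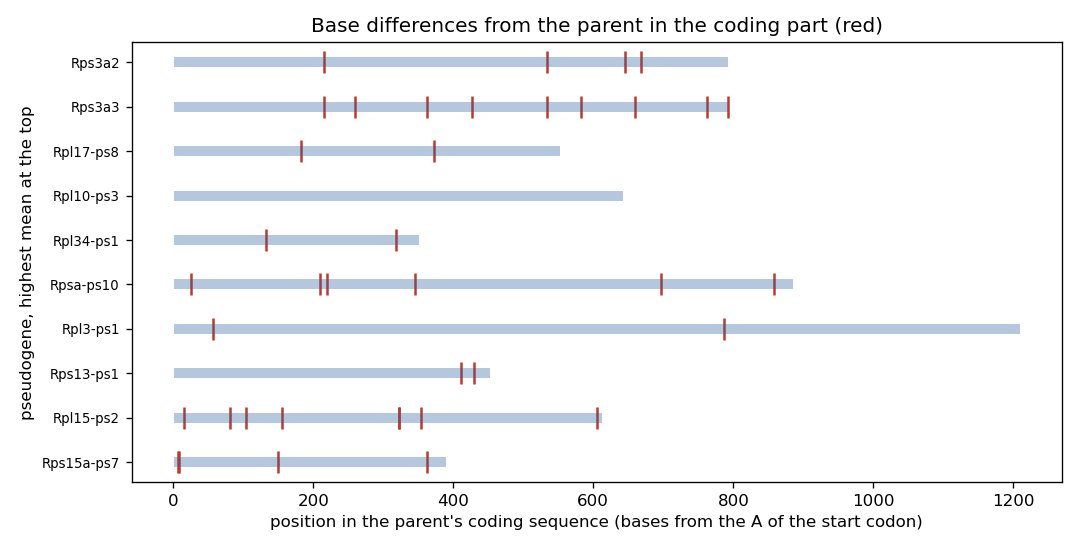
Positions of base differences from the parent (red marks) along the parent's coding sequence (blue bars, in bases from the A of the start codon) for the 10 pseudogenes with the highest mean. Rps3a2 has 4 marks, Rps3a3 has 9 and Rpl10-ps3 has none.

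Rpl39-ps ranked higher per length than by its mean. Its mean was 92.7, but it is the shortest of the pseudogenes at 151 bases, and per length it was 13.6% of Rpl39, whose product is among the smallest proteins of the large subunit. Without division by length it was 3.37%, and with merged exons it was 31.98%. It differs from its parent by 1 base in 151, and 49.02% of its windows are in no other gene.

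Pseudogenes nearer their parent in sequence had higher levels relative to it. Over the 184 with an alignment to the parent, identity had a median of 98.1% and ran from 83.6% to 100%. 54 were at or above 99%, 34 were under 95% and 13 had neither mismatch nor gap. In 4 parts of 46 ordered by identity, the median mean was 1.84, 3.55, 21.9 and 31.3 from the least to the most alike. A mean of at least 10 was reached by 6, 15, 32 and 36 of the 46. The median percent of the parent was 0.0271%, 0.0693%, 0.617% and 0.745%. The rank correlation of identity with the percent of the parent was 0.664 (0.637 to 0.670 with other lengths or none) across 184 pseudogenes, which are not independent, since they share 54 parents, the same libraries and reads. The share of sequence in common with the parent, given next, moves with this pattern, and the part of reads that match both genes was not tested.

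**Figure D3:**
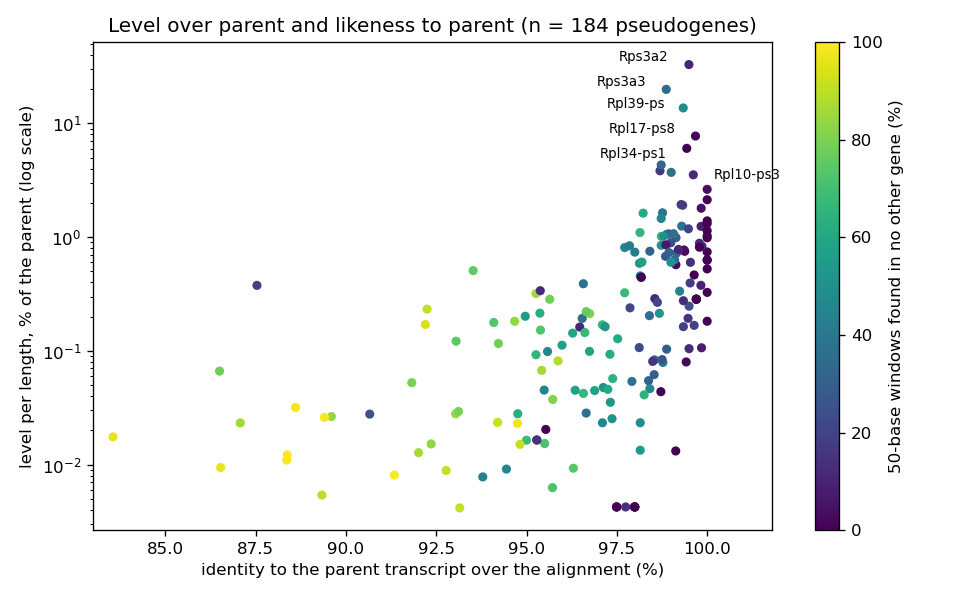
Level per length as a percent of the parent (log axis) against identity to the parent transcript for 184 pseudogenes, coloured by the percent of 50-base windows found in no other gene. Points rise to the right (rank correlation 0.664). The pseudogenes with no window of their own run from 0.00424%, where Rps12 copies lie, to 6.02% of the parent. The highest points, Rps3a2, Rps3a3 and Rpl39-ps, have windows of their own.

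Exact stretches gave a like picture. A 50-base window of the parent was found in 177 of 186 pseudogenes, a 75-base window in 159 and a 100-base window in 133, and in 12 all windows were in the parent. The median mean was 10.01 with such a 50-base stretch and 1.93 without. The share of windows found in the parent had a rank correlation of 0.616 with the percent of the parent (n = 186). Windows found in no other gene made up a median of 37.4% of a pseudogene. 31 pseudogenes had none, and their median mean was 9.57, against 9.55 for the 155 that had some. The quartiles were 0.358 and 30.4, against 2.27 and 32.3, and 9.57 is the value shared by 4 Rpl35a copies of one sequence. The share of windows in no other gene had a rank correlation of -0.359 with the percent of the parent (n = 186). For these 31, every 50-base stretch occurs in at least 1 other gene, so a read of that length could not be placed in them alone.

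The pseudogenes at both ends of likeness were all far below their parents. Among those with a mean of at least 10, 10 are the same as their parent at every base and have no window of their own. Their means ran from 11.3 to 139 and their levels from 0.525% to 2.13% of the parent, with a median of 1.01%. The 3 with the highest means of these 10 were Rps6-ps4 (mean 139, 1.39% of Rps6), Rps12-ps3 (81.0, 1.02% of Rps12) and Rps16-ps2 (67.6, 2.13% of Rps16). Among the least alike were Rplp0-ps1 (18.3, 94.1% identity) and Rps27-ps1 (11.2, 94.7%). Of their windows, 73.3% and 83.2% are in no other gene, and they stood at 0.178% and 0.182% of their parents.

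17 pseudogenes in 4 groups had exactly the same mean as another. 9 copies of Rps12 all had 0.2708. They lie between 124349725 and 125987364 on chromosome X, and 5 of them, Rps12-ps11 among them, have one and the same sequence. 4 copies of Rpl35a on 4 chromosomes had 9.57 each and have the same sequence, as do Rps19-ps1 and Rps19-ps2 on chromosome 14 with 20.5 each. Rps12-ps22 and Rps12-ps23, both at 1.06, differ in sequence. Of the 14 pseudogenes that share their whole sequence with another, in 4 groups, the mean was the same within each group.

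Counted here are only the 187 of this set, and not the further copies without a -ps symbol described at the end. The table holds no gene at 0, so copies without signal, if any, are not counted. Among the 187, Rps12 had the most copies, 21, of which 13 are on chromosome X. Their means ran from 0.271 to 81.0 with a median of 0.556, and Rps12-ps3 held 50.6% of their sum. Rpl31 had 12 copies (0.400 to 36.9), and Rpl21 and Rpsa had 9 each (0.364 to 36.1 and 1.54 to 192). Rpl30, Rps15a and Rps19 had 7 each. 16 parents had a single copy in the set. Rplp0 and Rpl12 are among these 16 and have further copies without a -ps symbol. The Rps12 copies summed to 2.27% of Rps12 per length, and the 5 copies of Rpl17 to 10.3% of Rpl17. The rank correlation between the mean of a copy and that of its parent was 0.179 across 187.

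**Figure D4:**
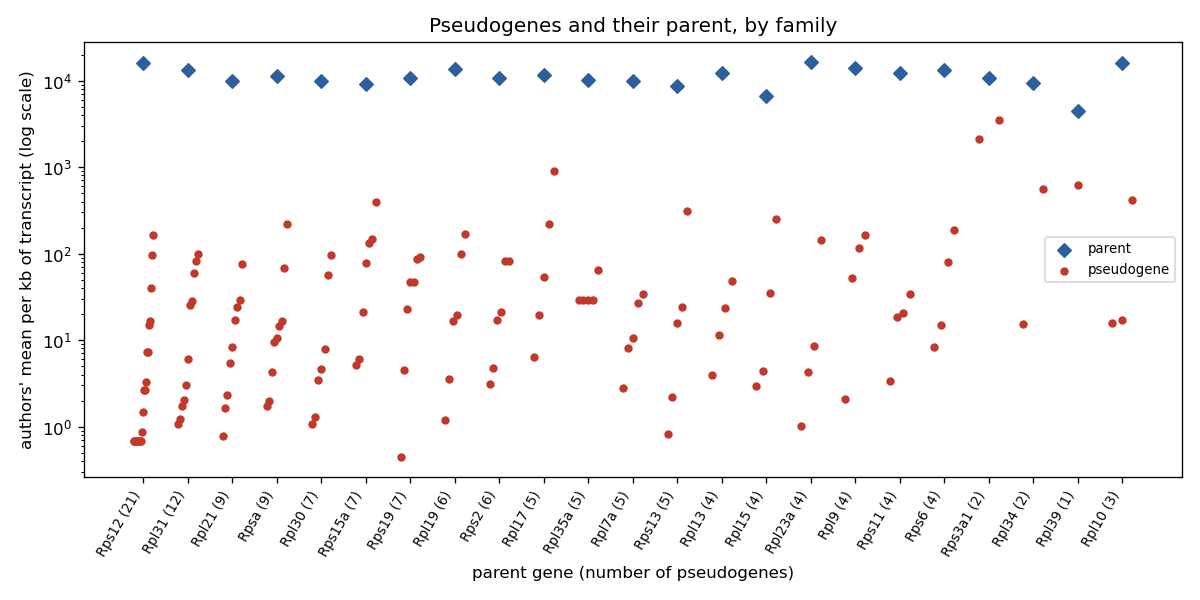
Authors' mean per kb of transcript (log axis) for parents (blue diamonds) and their pseudogenes (red points), for the families with at least 4 pseudogenes and for Rps3a1, Rpl34, Rpl39 and Rpl10. The parents lie near 10089, and within a family the copies spread widely, with 9 of the 21 Rps12 copies at one level.

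The pseudogenes lie on 20 chromosomes, with 26 on X. Their median mean was 1.25 on X and 10.4 on the autosomes. 13 of those on X are Rps12 copies. Overlap was sought with coding and long non-coding genes only, not with other pseudogenes or small RNA genes. 124 overlap no such gene, 41 lie in an intron of a gene on the opposite strand, 18 in an intron of a gene on the same strand and 3 (Rps12-ps4, Rps23-ps1 and Rps23-ps2) over an exon on the opposite strand. The medians were 8.48, 9.57, 11.2 and 24.5. Strand use in counting is not given in the sources used here, so reads of an intron or exon around a copy cannot be told apart from its own. 185 have 1 exon, 137 are within 6 bases of the parent's coding length plus stop codon, and 131 of 186 keep a reading frame of at least 90% of the parent's. These 131 had a median mean of 11.3 and the other 55 had 4.13, and the median identity was 98.6% and 95.7%. 177 are annotated as processed pseudogenes, 4 as transcribed processed pseudogenes and 5 as protein coding (Rpl10-ps3, Rpl36a-ps1, Rpl9-ps1, Rpl9-ps6 and Rps12-ps3).

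The symbol did not always name the closest gene. Rpl36a-ps3 (mean 5.76) is closest to Rpl36al, and Rpl13-ps1 (7.65) has no alignment to Rpl13 and all its windows to itself. Rpl31-ps12 (1.65) has no position in the annotation and stays out of the values per length. On chromosome 3, which carries Lmna, there are 12 pseudogenes of this set. The nearest of these to Lmna is Rplp0-ps1 at 4.77 Mb, in an intron of Flg. Next are Rpl31-ps11 at 6.09 Mb (mean 10.5) and Rps10-ps1 at 7.11 Mb (mean 74.1).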

How the data were processed

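RNA of sorted mouse splenic myeloid cells (8 samples, 4 groups of 2) was sequenced. Per the labels and the methods, the authors ran Cutadapt 1.14 to trim adapters, STAR 2.5.2b to align to mm10, RSEM 1.3.0 on GENCODE M12 to estimate counts per gene, and DESeq2 1.20.0. Strandedness and read length are not given in the sources used here. The deposited signal is the authors' mean of counts divided by size factors, over samples that are not named. 6 columns of the authors' comparison (log2 fold change, standard error, statistic, p, adjusted p, fold) were not used, and genotypes were not compared.

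Of 23084 identifiers, 23004 are in GENCODE M21 on the same build, which gave positions and transcript sequences. Levels per kb used the shortest principal (APPRIS) coding transcript, or the longest transcript of a non-coding gene. This was chosen after values were seen, as the third of 3 definitions tried. Likeness was measured with blastn 2.17.0 (expect limit 1e-10) and exact windows of 50 bases, the latter checked on simulated sequences. Python 3.11.15, pandas 2.3.3, scipy 1.17.1 and matplotlib 3.10.9 were used. The genes and lists were chosen with earlier results of these data known. Named are the 10 with the highest mean, the 5 highest per length over the parent and the 3 most and least like it (mean of at least 10; a tie of 10 at the most alike end was broken by the higher mean, after values were seen), the Rps3a1 family, the parents of these and the copies nearest Lmna. Others are named for a group of 5 or fewer, for the size of a family or for an exception, and were picked after their values were seen. Results for some genes under this rule are not reported here.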

Additional observations from a re-analysis of the deposited data

How the results depend on the processing

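With no values per sample, precision is unknown and no level has an error. No paired analysis was possible because no columns of single samples were analysed. For the same reason leaving out a replicate, DESeq2 size factors and a fit without a filter on low counts were not run. The summed level of the pseudogenes as a percent of the parents', 2.84% per length, was 1.83% without Rps3a2 and Rps3a3, 2.30% without division by length and 2.72% with pseudogenes of a mean of at least 10. With length taken from all merged exons it was 6.46%, and with the longest principal transcript 3.33%, both added after the data were seen. The median percent of the parent, 0.182%, became 0.130% without division by length, 0.739% at a mean of at least 10, 0.516% with merged exons and 0.217% with the longest principal transcript. The 30 pseudogenes at or above 1% of the parent became 73 (merged exons) and 18 (no length), the 3 at or above 10% became 11 (merged) and 7 (longest), and the 74 under 0.1% became 49 (merged). The rank correlation with identity, 0.664, became 0.637 (longest) and 0.670 (no length). These settings were added after the data were seen. Rps15a-ps7 went from 4.31% to 42.2% (merged) and 34.8% (longest), above Rps3a2. The 177 of 186 pseudogenes with a shared window became 89 of 90 at a mean of at least 10. The count falls by construction, but the share does not follow from the filter. Median identity rose from 98.1% to 98.99%. With 75 and 100 bases the median mean was 11.2 and 14.6 with a shared stretch and 1.71 and 2.40 without, and the rank correlation, for which these settings were added later, was 0.586 and 0.544. Of 34 alternatives, 10 left the value the same or a count within 1.5 times, and 24 moved it. A value other than a count was called moved if it differed at 3 significant digits, however small the change, as from 0.664 to 0.670.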

Other observations

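Copies of ribosomal protein genes without a -ps symbol outnumbered those with one, at lower typical levels. Of the 2454 other processed pseudogenes in the table, 550 were closest in sequence to a coding ribosomal protein gene. Their median mean was 2.44 and their sum 9555, against 9930 for the 187 with a -ps symbol or named here. Their identity to the closest gene had a median of 95.1% and ran from 66.1% to 100%. The median identity of the 187's aligned members to their parents was 98.1%, and the part of this in the levels was not tested. Gm8730 had a mean of 2340, or 22.2% per length of Rplp0, the gene of a stalk protein of the large subunit, and is 98.7% the same as it. Its mean and its percent of the parent per length are above those of Rps3a3 (1699, 19.9%). Without division by length, its percent is below the 16.2% of Rps3a3. Gm9625 (503, Rplp0), Gm10275 (357, Rpl12) and Gm10020 (258, Rpl15) followed. These genes were picked after their values were seen.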
